A study of Mus musculus with 5480 samples.

Results

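The 7 genes described here, Pi16, Dpp4, Ly6a, Ly6c1, Cd34, Cd248 and Thy1, encode cell-surface proteins used to recognise adventitial fibroblasts, the connective-tissue cells around vessels and airways, and their progenitor-like members. They were taken by name from the 18072 genes of a table of read counts, and all 7 had a row. The table covered 5480 single cells of mouse distal lung mesenchyme, the fibroblasts, smooth muscle and vessel-wall cells that form the lung's connective tissue. Cells had been sorted by FACS into the wells of plates, and each carried 1 of 16 subtype names given by the authors. There were 5 groups of 2 mice, 1 female and 1 male each: 4 kept in normal air, aged embryonic day 18.5 (E18.5) and postnatal day 1, 7 or 21 (P1, P7, P21), and 1 aged P7 and kept in hyperoxia, the breathing of oxygen-enriched air. The labels name no engineered allele in any group, and strain, genotype and oxygen level were not given in the sources used here. The comparisons ask in which subtypes these genes were read, when in development, and whether their levels differed under hyperoxia.

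Ly6a (also called Sca-1) and Ly6c1 belong to the Ly6 gene cluster and encode small proteins held in the membrane by a lipid anchor, as does Thy1. Dpp4 is a membrane protease that trims chemokines and peptide hormones. Pi16 is a CAP-domain protein, Cd34 a sialomucin of vascular and fibroblast progenitors, and Cd248 (endosialin) a glycoprotein receptor of stromal cells and pericytes. In adult mouse tissues, fibroblasts carrying Pi16, Dpp4 and Ly6a are known as a reservoir population of the adventitia and of interstitial sheaths.

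Early and later subtypes of a kind were joined, which gave 839 adventitial fibroblasts, 15.3% of all cells. The female and the male mouse gave 26 and 29 of them at E18.5, 138 and 67 on P1, 50 and 56 on P7, 110 and 116 at P7 in hyperoxia, and 161 and 86 at P21. The class name was checked on 6 genes that are not among the 7. Dcn, Mfap5 and Serpinf1, matrix and secreted proteins, were higher in adventitial than in alveolar fibroblasts in 10 of 10 mice and Col14a1 in 9, whereas Clec3b was higher in 5 and Dpt in 3. Whole mice held 294154721 to 671766116 reads. Levels below are given as CPM, a gene's counts scaled to a fixed library total, for reads summed over the cells of a mouse and class with at least 10 such cells. Summed reads cannot tell fewer expressing cells apart from less RNA per cell, so shares of cells are given as well. Nearly all cells of each hyperoxia mouse came from runs of its own, so hyperoxia and run cannot be told apart, while nearly all cells of the male mice in normal air came from 1 shared run. Among the female mice in normal air, E18.5 and P1 shared a run, and P7 and P21 each came almost wholly from a separate run. In the females, age and run thus cannot be told apart between P1 and P7 or between P7 and P21.

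The 7 genes fell into 2 patterns across the mesenchyme. Pi16, Ly6a and Ly6c1 were read mostly in adventitial fibroblasts, which held 97.4%, 96.9% and 97.7% of all their reads, and Dpp4 and Thy1 followed at much lower levels with 89.9% and 84.8%. With the 10 mice weighted equally these shares were 91.6%, 78.6%, 68.6%, 57.4% and 69.6%, in the same order of genes, since mice with few reads of a gene then count as much as the others. Cd34 and Cd248 were spread over several classes, and adventitial fibroblasts held 35.9% and 24.6% of their reads, or 37.8% and 30.4% with mice weighted equally. Counted as cells with at least 5 reads, Pi16 was found in 274 adventitial and 31 other cells, Ly6a in 246 and 20, Ly6c1 in 132 and 14, Thy1 in 61 and 7, and Dpp4 in 20 and 8. The same counts were 667 adventitial and 1727 other cells for Cd34, and 628 and 1599 for Cd248. How the authors assigned the subtype names is not given in the sources used here, and these genes may have been used, so levels between classes are a description and carry no test.

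**Figure D1:**
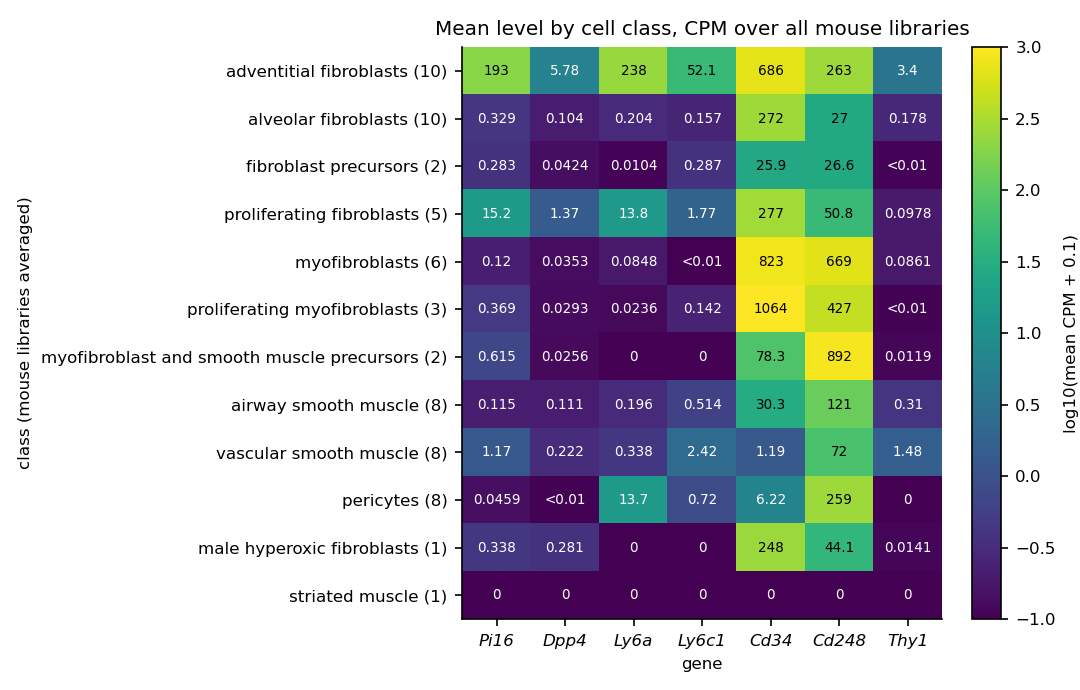
Mean level of each of the 7 genes (columns, CPM printed in each cell, colour on a log10 scale with 0.1 added) in each cell class (rows), averaged over the mouse libraries whose number stands in brackets. Pi16, Ly6a and Ly6c1 average 193, 238 and 52.1 CPM in adventitial fibroblasts and under 20 CPM in every other class shown, while Cd34 and Cd248 are high in several classes.

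The pair of patterns is shown beside the promoters of the members that the RefSeq table (build GRCm38.p6) held, which were 4 of the 7: Pi16, Dpp4 and Ly6c1 of the adventitial pattern and Cd34 of the wider one. Each line gives the 250 bases before the transcription start, 5′ to 3′ on the gene's strand, at chr17:29318632-29318881 (plus strand) for Pi16, chr15:75048838-75049087 (minus) for Ly6c1, chr2:62412232-62412481 (minus) for Dpp4 and chr1:194938571-194938820 (plus) for Cd34. Capitals mark matches, on either strand, to any of 6 motifs: the TATA box TATAAA, the CCAAT box, the GC box GGGCGG, the AP-1 site TGANTCA, the gamma-activated sequence TTCNNNGAA, and a pair of GAAA separated by 2 bases of any kind (interferon-stimulated core).
Pi16: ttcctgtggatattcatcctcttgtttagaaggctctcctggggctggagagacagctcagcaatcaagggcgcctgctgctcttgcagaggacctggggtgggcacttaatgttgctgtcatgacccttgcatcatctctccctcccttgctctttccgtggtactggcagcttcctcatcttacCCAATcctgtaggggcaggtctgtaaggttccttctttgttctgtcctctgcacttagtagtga
Ly6c1: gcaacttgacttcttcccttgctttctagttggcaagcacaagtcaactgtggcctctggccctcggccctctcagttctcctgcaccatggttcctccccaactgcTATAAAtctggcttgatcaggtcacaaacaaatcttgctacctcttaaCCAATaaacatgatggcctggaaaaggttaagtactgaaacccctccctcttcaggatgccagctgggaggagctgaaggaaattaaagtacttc
Dpp4: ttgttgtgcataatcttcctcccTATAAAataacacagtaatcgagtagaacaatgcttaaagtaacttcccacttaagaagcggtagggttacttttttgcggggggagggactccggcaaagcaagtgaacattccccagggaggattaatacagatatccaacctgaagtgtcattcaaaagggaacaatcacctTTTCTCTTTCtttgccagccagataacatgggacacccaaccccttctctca
Cd34: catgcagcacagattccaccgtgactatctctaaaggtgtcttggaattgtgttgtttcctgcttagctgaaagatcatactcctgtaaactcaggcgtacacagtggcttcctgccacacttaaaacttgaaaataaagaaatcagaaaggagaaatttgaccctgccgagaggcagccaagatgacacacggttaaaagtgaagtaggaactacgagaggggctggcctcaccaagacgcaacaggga
The Pi16 and Ly6c1 windows both hold CCAAT, 64 and 95 bases before the start, a motif found in 33.8% of 32536 distinct promoter windows of this length. The Ly6c1 and Dpp4 windows hold TATAAA, 143 and 227 bases before the start, as do 12.3% of all windows. The interferon-stimulated core in the Dpp4 window, 52 bases before the start, is in 2.98% of all windows, and the Cd34 window holds none of the 6 motifs. The GC box, the AP-1 site and the gamma-activated sequence, found in 33.0%, 6.73% and 7.04% of windows, were in none of the 4. CG pairs numbered 2, 1, 4 and 6 in the Pi16, Ly6c1, Dpp4 and Cd34 windows, against a median of 6 over all windows. The table holds another Ly6c1 start, whose window at chr15:75048664-75048913 overlaps the one shown and has none of the 6 motifs and 0 CG pairs. These are letter matches in short windows and a description only.

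Outside adventitial fibroblasts, reads of the 3 adventitial genes sat in very few cells. Pericytes at P21 showed Ly6a at 27.8 CPM in the female and 77.4 CPM in the male, but these came from 2 of 70 cells and 1 of 75 cells with at least 5 reads, and the top cell held 99.4% and 99.96% of the reads. Proliferating fibroblasts in hyperoxia had Ly6a at 43.0 and 26.0 CPM in 2 of 23 and 4 of 36 cells, and Pi16 at 2.26 and 54.9 CPM in 1 and 4 cells. Among alveolar fibroblasts, the largest class with 1868 cells, the highest Pi16 value of any mouse was 2.41 CPM, in the P1 female, with 75.5% of its reads in 1 cell. Class averages of these genes outside adventitial fibroblasts thus rest on a few cells.

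Pi16 levels overlapped between ages up to P7 and were far higher at P21. In the female and the male it was at 117 and 21.6 CPM at E18.5, 98.7 and 40.1 on P1, 66.8 and 94.8 on P7, and 764 and 515 at P21. The first 3 ages overlapped, and both P21 mice lay above all 6 younger mice in normal air. In cells thinned to 100000 reads each, Pi16 was detected in 14.0% and 16.7% of adventitial fibroblasts at P7 and in 66.7% and 52.9% at P21.

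Ly6a, the stem and progenitor cell antigen, had no read in adventitial fibroblasts before birth. The 26 and 29 adventitial fibroblasts of the E18.5 mice held 0 Ly6a reads. At 3 counts per library the limit is 0.122 and 0.110 CPM. That limit covers the counting of reads only, and rare cells with Ly6a may have been missed among so few cells. Levels were 189.6 CPM in the female and 45.8 in the male at P1, 63.9 and 179 at P7, and 463 and 802 at P21. Both P1 mice were above both E18.5 mice, P1 and P7 overlapped, and both P21 mice were above both P7 mice. In thinned cells the shares with a read were 15.7% and 4.84% at P1, 10.0% and 5.56% at P7, and 60.4% and 49.4% at P21. Plates of 1 mouse differed widely in the first week: the male P7 mouse had 341 CPM on its first plate (24 cells) and 0 on its second (29 cells), and the male P1 mouse had 0.0856 and 151 CPM (34 and 33 cells).

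Ly6c1, its neighbour in the gene cluster, followed the same course at lower levels. It was at 0 in both E18.5 mice, at 19.7 and 1.10 CPM at P1, 4.34 and 38.0 at P7, and 137 and 170 at P21. P1 and P7 overlapped, and P21 lay above both. The P7 level rests on few cells, with a read in 3 of 104 thinned cells. The male P7 mouse had 72.4 CPM on its first plate (24 cells) and 0 on its second (29 cells). Reads shared between related Ly6 genes cannot be assigned with certainty, since the rule for such reads is not given in the sources used here. Values of Ly6a and Ly6c1 are uncertain to that extent.

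Cd34 and Cd248 were already present in adventitial fibroblasts before birth. Cd34 stood at 302 and 726 CPM at E18.5, 511 and 413 on P1, 640.1 and 472 on P7, and 1237 and 1104 at P21. Cd248 stood at 186 and 233 CPM at E18.5, 223 and 249 on P1, 140.0 and 176 on P7, and 418 and 253 at P21. For both genes E18.5 and P1 overlapped and both P21 mice were above both P7 mice, and Cd248 was lower in both P7 mice than in both P1 mice, as were 22.9% of all genes tested. Thinned shares were high throughout: 57.7% to 73.1% for Cd34 from E18.5 to P7 and 90.6% and 88.2% at P21, and 48.1% to 75.9% for Cd248 from E18.5 to P7 and 83.6% and 67.1% at P21.

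Dpp4 and Thy1 were too low to follow with age. Dpp4 had any read in 121 of the 5480 cells, with a median of 1 read where it had any. In adventitial fibroblasts it was at 0.973 and 0.0368 CPM at E18.5, 0.0555 and 0.0298 on P1, 9.66 and 0.0324 on P7, and 7.59 and 26.4 at P21, and 98.3% of the reads of the female P7 mouse came from 1 cell. Thy1 was at 0.324 and 0 CPM at E18.5, 3.79 and 0.134 on P1, 0.412 and 2.78 on P7, and 11.0 and 2.39 at P21. Every pair of successive ages overlapped for both genes. At P21, 29 of 161 and 4 of 86 adventitial fibroblasts held at least 5 Thy1 reads, and 4 and 2 held as many of Dpp4.

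Levels were also scaled per kilobase of exon, the length being that of all annotated exons of a gene joined. This is a rough scaling, since the exons in use were not determined. The P21 order in adventitial fibroblasts was then led by Ly6a, with 384 and 665 CPM per kilobase in the female and the male. Ly6a and Ly6c1 keep the uncertainty of shared reads given above. Cd34 (169.7 and 151), Cd248 (160.5 and 97.1), Pi16 (119.98 and 80.9) and Ly6c1 (81.4 and 101) followed. Within each mouse Cd34 lay above Cd248, Pi16 and Ly6c1, and Cd248 lay above Pi16. Ly6c1 lay below Cd248 and Pi16 in the female and above them in the male. Thy1 (3.68 and 0.798) and Dpp4 (1.20 and 4.18) came last and overlapped.

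**Figure D2:**
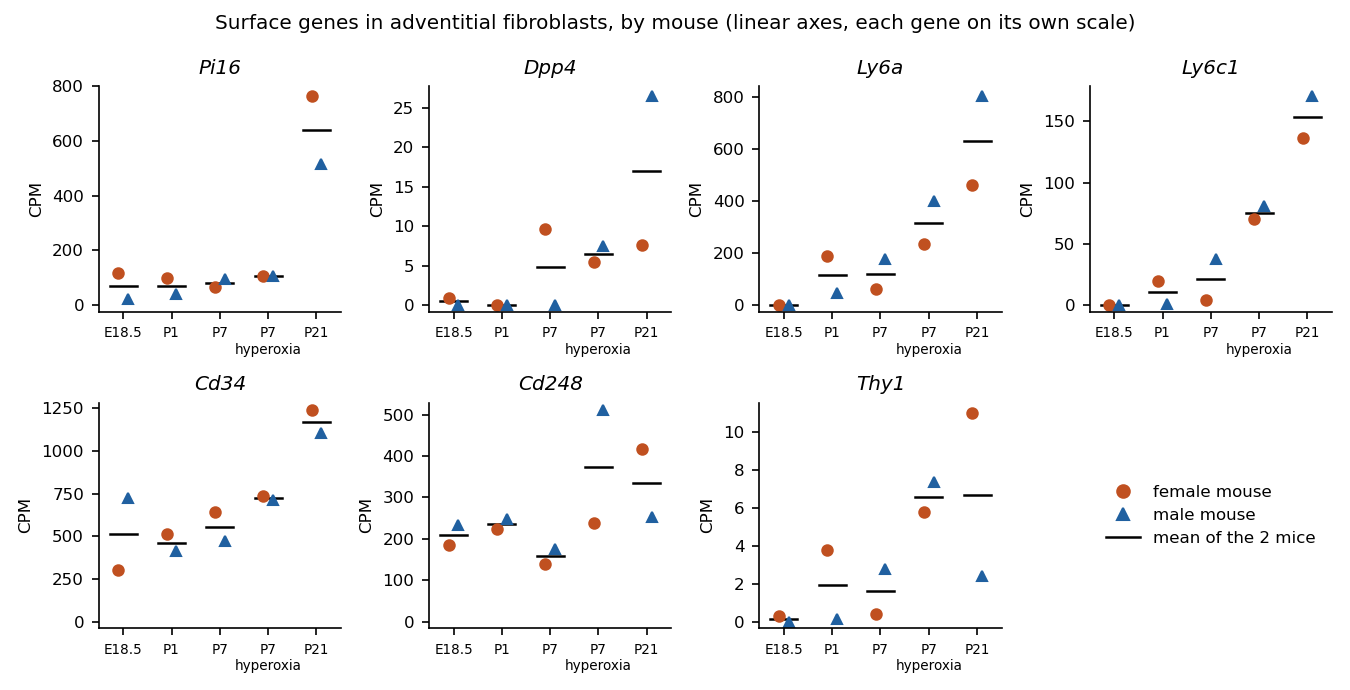
Level (CPM, linear axes, a separate scale for each gene) of the 7 genes in adventitial fibroblasts by group, with 1 point per mouse and a bar at the mean of the 2 mice. Pi16 overlaps between ages up to P7 and reaches 764 and 515 CPM at P21, Ly6a and Ly6c1 start at 0 at E18.5, and Cd34 and Cd248 are present at every age.

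Groups were compared with edgeR's quasi-likelihood test on the summed counts, with sex as a term and Benjamini-Hochberg adjustment over all genes tested in a comparison, at a threshold of 0.05. Of 7 genes tested between E18.5 and P1 in adventitial fibroblasts, 1 passed, against 0.17% of all 15289 genes tested. Ly6a rose (adjusted p = 0.0154 by edgeR, higher in 2 of 2 mice). Since both E18.5 mice were at 0, folds are given over the limit set by 3 counts in the group. The P1 mean of Ly6a was 2035-fold over it, or 792-fold without the female P1 mouse and 3277-fold without the male. The limit covers the counting of reads and not the sampling of only 26 and 29 cells, so these folds are not lower bounds. The fit on these 4 mice alone did not call Ly6a (adjusted p = 0.290 by edgeR). The 6 genes used to check the class name also differed, summing to 1908 to 2799 CPM at E18.5 and 5341 to 11276 on P1. Their part in the Ly6a difference was not tested. Ly6c1 stood 179.6-fold over its limit, 19.1-fold without the female P1 mouse and 340.2-fold without the male, and did not pass (adjusted p = 0.181 by edgeR). Without the male P1 mouse its log2 change was 14.2, against 12.6 with all mice. Both P1 mice were above both E18.5 mice for 2 of the 7 genes, as for 23.9% of all genes tested. Between P1 and P7, 0 of the 7 passed, as did 0% of all genes by edgeR, and 1 of the 7 had an unadjusted p under 0.05, Dpp4, against 5.6% of all genes. That gene's P7 level rests on 1 cell, as given above, and DESeq2 called it (adjusted p = 0.0340).

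Between P7 and P21, 5 of the 7 genes lay higher in both P21 mice than in both P7 mice, which held for 20% of all genes tested, and the median log2 change of the 7 was 2.60 against 0.10 over all genes. By edgeR 0 of the 7 passed the adjusted threshold, which 0.124% of all genes passed, and 5 had an unadjusted p under 0.05, against 10.2% of all genes. Pi16 was 7.91-fold higher in mean CPM, with a log2 change of 3.03 (SE 0.63, adjusted p = 0.125), and Ly6a 5.20-fold, with 2.60 (SE 0.72, adjusted p = 0.291). Ly6c1 was 7.25-fold higher with a log2 change of 3.09 (SE 1.29), Cd34 2.11-fold with 1.24 (SE 0.40) and Cd248 2.12-fold with 1.28 (SE 0.40). The P7 level of Ly6c1 rests on few cells, as given above. In the male mice, nearly all from 1 run, the P21 level stood above the P7 level for 6 of the 7 genes, Thy1 being the exception. That sets 1 mouse against 1, and the share of all genes higher in this pair was not determined. Pi16 passed the threshold in 4 alternative fits: DESeq2 (adjusted p = 9.39e-05), the 4 mice of the contrast alone (0.0424), and the fits that lacked 1 E18.5 mouse, female (0.0245) or male (0.0271). Ly6a passed in 3: DESeq2 (0.00606) and leaving out the female or the male P1 mouse (0.0440 and 0.0381). Nearly all P21 cells, 238 of 247, carried the authors' later adventitial name, and 104 of the 106 P7 cells carried the early one. Markers of other cell types differed between these ages too: in adventitial fibroblasts the sum of 8 smooth muscle markers was 1115 to 1620 CPM at P7 and 211 to 376 at P21, that of 12 alveolar markers 1729 to 2038 and 3940 to 5393, and that of 12 immune markers 9.96 to 10.5 and 20.3 to 26.0. Their part in the differences was not tested.

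A list of 28 other genes known for adventitial fibroblasts gives the surroundings of this difference. Between P7 and P21, 3 of the 28 passed the edgeR test, all higher, against 0.124% of all genes tested. In both P21 mice 20 of the 28 were higher, against 20% of all genes tested, with a median log2 change of 1.25. Gsn, an actin-severing protein also found in plasma, rose from 4117 and 2682 CPM to 32619 and 25106 (log2 change 3.26, SE 0.31, adjusted p = 0.00429 by edgeR). Gfpt2, an enzyme of hexosamine synthesis, rose from 33.9 and 12.0 CPM to 431 and 346 (adjusted p = 0.0312), and Has1, a hyaluronan synthase, from 0.676 and 2.40 CPM to 323 and 268 (adjusted p = 0.0462). The P21 mice were apart from the P7 mice for each of the 3. Gsn also rose in alveolar fibroblasts, from 2023 and 992 CPM to 17676 and 12607 (log2 change 3.64, adjusted p = 0.0469 by edgeR). Ly6a is known to be inducible by interferons, and a list of 20 other interferon-induced genes had 0 of 20 past the threshold, 15 of 20 higher in both P21 mice and a median log2 change of 2.54. Of 23 tested relatives of the 7 genes (Ly6, CAP-domain, DPP4-type, CD34-family and lectin genes) 0 passed and 9 were higher in both mice, and of 18 binding partners and anchor enzymes 0 passed and 5 were higher in both. The shares of 0.124% and 20% of all genes apply to these lists as well. The companion and interferon-induced lists had similar medians in alveolar fibroblasts, 1.30 and 2.34, against -0.04 over all genes tested there. The difference between the classes was not tested.

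Within adventitial fibroblasts at P21, Ly6c1 was read almost only in cells that also had Ly6a. Of 79 thinned cells with a Ly6c1 read, 76 also had Ly6a, whereas only 3 of the 106 cells without Ly6a had Ly6c1. Pi16 was less tied to Ly6a: it was read in 100 of 138 cells with Ly6a and in 51 of 106 without. All 7 cells with a Dpp4 read also had Ly6a, and 6 of them had Pi16 and 6 had Ly6c1. Thy1 was read in 24 of 138 cells with Ly6a and in 4 of 106 without. The relation of Ly6a to Pi16 had the same direction in both mice: 69.8% of Pi16 cells and 41.5% of the others had Ly6a in the female, and 57.8% and 40.0% in the male. Cells of 1 mouse share their source, so these are counts and carry no test. Reads shared between Ly6 genes may enter the counts of Ly6a with Ly6c1, and their part was not tested.

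The number of the 7 genes read per cell was highest at P21, with the male hyperoxia mouse close to the male P21 mouse. At least 3 were read in 15.4% and 10.3% of thinned adventitial fibroblasts at E18.5, in 28.4% and 16.1% on P1, in 18.0% and 16.7% on P7 and in 73.6% and 55.3% at P21, and in 40.2% and 53.4% in hyperoxia at P7. The P21 mice stood above all younger mice in normal air. Among the younger ages P1 and P7 overlapped, and both E18.5 mice lay below them. The median of genes per thinned cell, a measure of library complexity, was 2481 and 2550 at P7, 3233 and 2107 at P21, and 4007 and 4810 in hyperoxia. Its part in these shares was not tested.

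**Figure D3:**
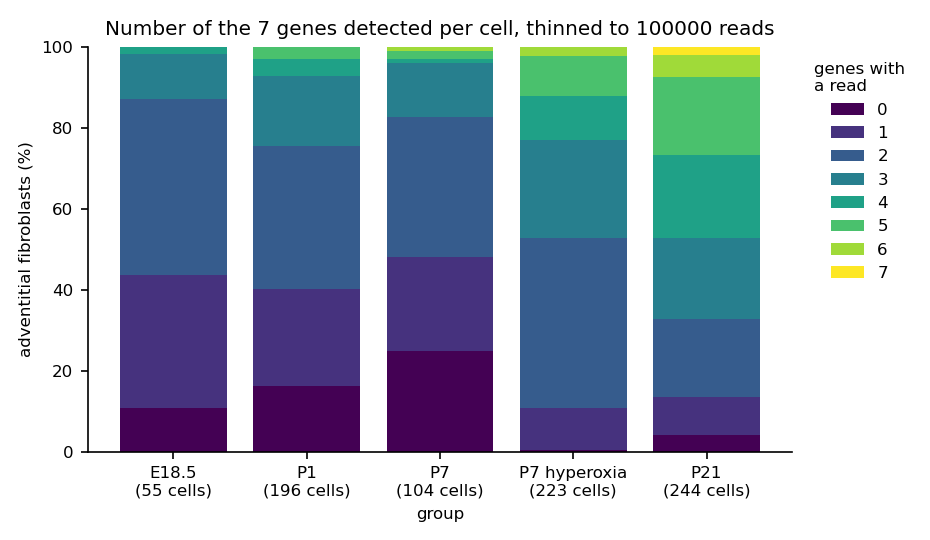
Share of adventitial fibroblasts (percent, stacked to 100) in which 0 to 7 of the genes had a read, for each group with both mice joined and cells thinned to 100000 reads. Cells with 3 or more of the genes make up the larger part of the P21 bar, and cells with 0 of them are 25.0% of the P7 bar and 0.448% of the hyperoxia bar.

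Under hyperoxia 6 of the 7 genes read higher in both mice in adventitial fibroblasts than in normal air at P7, and none passed the test. Against the P7 values given above, the female and the male hyperoxia mouse had Pi16 at 107.5 and 106 CPM, Ly6a at 235 and 399, and Ly6c1 at 70.0 and 81.0. Cd34 was at 739 and 716 CPM, Cd248 at 238 and 511, Thy1 at 5.79 and 7.40 and Dpp4 at 5.45 and 7.49. Both hyperoxia mice were above both air mice for 6 of the 7, all but Dpp4, as for 31.3% of all genes tested, and the median log2 change was 1.25 against 0.12 over all genes. By edgeR 0 of the 7 passed, as did 0% of all genes, with 1 unadjusted p under 0.05, for Cd248, against 8.01% of all genes. By DESeq2 0 of the 7 passed as well. Of the companion, relative, partner and interferon-induced lists, 0 genes passed by edgeR, with unadjusted p under 0.05 for 8, 2, 2 and 3 genes, and their median log2 changes were 0.13, 0.63, 0.03 and 0.81.

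In fold of mean CPM, Thy1 was 4.12 times the air level at a few CPM, followed by Ly6c1, 3.57 times (log2 change 1.71, SE 1.24), Ly6a, 2.61 times (log2 1.25, SE 0.69), and Cd248, 2.37 times (log2 1.03, SE 0.39, unadjusted p = 0.0251, adjusted p = 0.621 by edgeR). Pi16 and Cd34 were nearly level, with log2 changes of 0.17 (SE 0.58) and 0.20 (SE 0.39), and each turned negative without 1 mouse: Pi16 at -0.38 without the male hyperoxia mouse and -0.43 without the female P7 mouse, and Cd34 at -0.10 without the male P7 mouse. Thinned shares of cells with Ly6a were 28.0% and 37.1% against 10.0% and 5.56% in air, with Ly6c1 14.0% and 21.6% against 4.00% and 1.85%, and with Cd248 91.6% and 97.4% against 62.0% and 48.1%. The groups did not overlap in any of these 3 shares. The share was higher in hyperoxia for the remaining genes too, with both mice joined. Pi16 was read in 56 of 223 thinned cells against 16 of 104 in air, and Cd34 in 194 against 71. Thy1 was read in 23 against 2 of these cells, and Dpp4 in 12 against 1. As at P21, Ly6c1 lay within Ly6a cells, 38 of its 40 cells having both, with the same uncertainty of shared Ly6 reads.

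Library complexity and markers of other cell types moved with the hyperoxia group. Thinned adventitial cells of the hyperoxia mice held a median of 4007 and 4810 genes against 2481 and 2550 in air, and the part of this in the shares above was not tested. The summed level of 8 mesothelial markers was 777 and 888 CPM in hyperoxia and 338 and 0.259 in air, with 0 of 8 at 0 in hyperoxia and up to 2 at 0 in air. At least 5 reads of Msln (mesothelin) were found in 6 of 110 and 9 of 116 adventitial cells in hyperoxia and in 2 of 50 and 0 of 56 in air. These cells carried nearly all the hyperoxia Dpp4: 10 of the 15 had at least 5 Dpp4 reads, against 0.474% of the other cells, and they held 98.3% of the Dpp4 reads. Without them Dpp4 in the hyperoxia mice was at 0.0149 and 0.191 CPM. None of the 15 had 5 Pi16 reads. Without them Pi16 stood at 112 and 116 CPM, Ly6a at 246 and 433 CPM, Ly6c1 at 72.8 and 87.2, and Cd248 at 246 and 542. The summed level of 12 endothelial markers was 291 and 362 CPM in hyperoxia and 256 and 149.7 in air. That of 8 smooth muscle markers was 2390.2 to 2498 CPM against 1115 to 1620 in air, and that of 8 pericyte markers 564 to 628 against 303 to 348. The sum of 12 immune markers was 32.0 to 57.5 CPM against 9.96 to 10.5 in air, without overlap, and that of 10 epithelial markers 52.6 to 54.8 against 19.9 to 72.2. The part of other cell types' RNA in the levels was not tested beyond the cells with Msln.

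**Figure D4:**
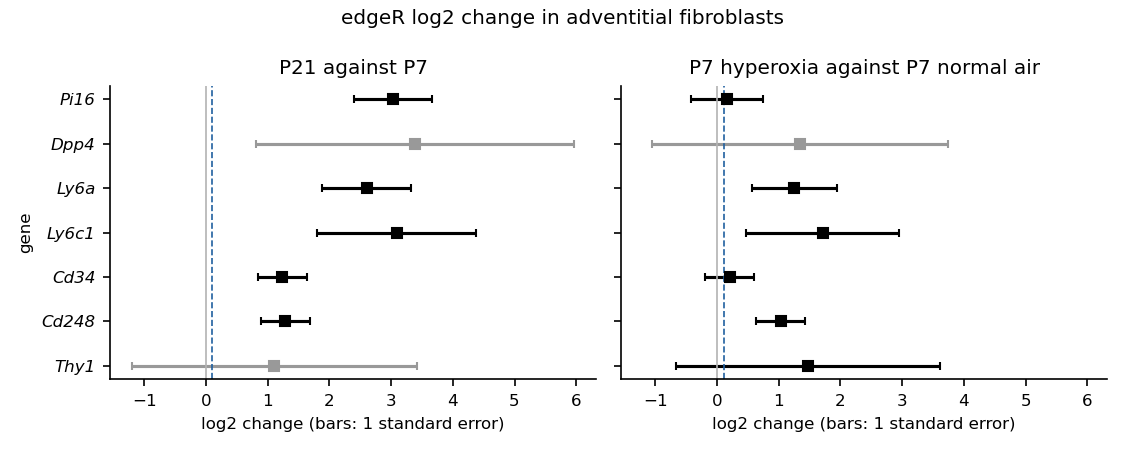
edgeR log2 change (x axis, bars of 1 standard error) of each of the 7 genes in adventitial fibroblasts for P21 against P7 (left) and hyperoxia against air at P7 (right), both against the same P7 mice. Black marks genes whose 2 mice of one group were both above those of the other, grey marks overlap, and the dashed line is the median of all genes tested, 0.10 on the left and 0.12 on the right.

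Cd34 was also read in other fibroblasts and in myofibroblasts, and hardly in mural cells. In alveolar fibroblasts it was at 79.4 and 0 CPM at E18.5, 271 and 211 on P1, 372 and 339 on P7, and 311 and 382 at P21. The P1 mice were above the E18.5 mice, as for 48.5% of all genes tested, and P7 and P21 overlapped. At E18.5 only 1 of 38 alveolar fibroblasts held at least 5 reads, and the fibroblast precursors of that age had 28.7 and 23.0 CPM. The difference between E18.5 and P1 (log2 3.17, SE 1.89, adjusted p = 0.391 by edgeR) did not pass: 0 of 6 genes tested did, against 6.16% of all genes, whose median log2 change was 1.35. Leaving out the female E18.5 mouse, which leaves that age at 0, or the male brought Cd34 past the threshold (adjusted p = 0.000548 and 0.0366), the lone mouse being assumed to vary like the other groups, but those fits called 4846 of 16564 and 2284 of 16472 genes, against 966 of 15670 with all mice. In adventitial fibroblasts of the same E18.5 mice Cd34 stood at 302 and 726 CPM. Of the gene lists, 2 of 28 adventitial companions, 1 of 19 tested relatives, 3 of 18 partners and 6 of 20 interferon-induced genes rose in alveolar fibroblasts between these ages, among them Clec3b, a plasminogen-binding lectin, from 0.640 and 0.295 to 66.2 and 66.9 CPM (adjusted p = 0.0284 by edgeR). These calls depended on the mice in the fit: over all genes 0 or 1 passed when any 1 P1, P7, hyperoxia or P21 mouse was left out, and 11 passed on the 4 mice compared alone. The E18.5 libraries hold 14 and 24 cells, whose thinned cells had a median of 1045 and 927 genes against 2500.0 and 2444 at P1, and the part of this in the calls was not tested.

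Myofibroblasts, the contractile cells of the growing alveolar septa, had higher Cd34 than adventitial fibroblasts of the same mouse at P7 and in hyperoxia. At P1 this held in the male only, and the ranges of the classes overlapped at P1 and P7. Myofibroblasts had 415 and 464 CPM at P1, 786 and 559.7 at P7, and 1499 and 1211 in hyperoxia at P7. In hyperoxia their mean was 1355 CPM against 728 in adventitial fibroblasts. Proliferating myofibroblasts had 1147 and 594 CPM at P7. Pericytes and vascular smooth muscle, the cells wrapping small and larger vessels, held Cd34 at 0 to 33.9 CPM and 0 to 9.25 CPM over all mice, and the highest value of each came from 1 cell.

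Cd248 was high in myofibroblasts, as was Cd34, in the precursors of myofibroblasts and smooth muscle, and in pericytes, where Cd34 was low. The precursors of myofibroblasts and smooth muscle at E18.5 had 872 and 912 CPM, the highest normal-air values of any class with 10 cells per mouse. Myofibroblasts had 582 and 636 CPM at P1 and 436 and 388 at P7. Pericytes had 351 and 460 CPM at E18.5, 267 and 345 on P1, 90.8 and 151 on P7, and 271 and 136 at P21, with P7 and P21 overlapping. Vascular smooth muscle ranged from 37.5 to 113 CPM over the 8 mice with 10 or more cells, and alveolar fibroblasts from 0 to 68.8 CPM.

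In airway smooth muscle, the muscle around the bronchi, Cd248 fell almost to nothing between P7 and P21. It was at 142 and 273 CPM at P1, 185 and 102 at P7, 133 and 126 in hyperoxia, and 0.924 and 4.99 at P21. All 6 younger or hyperoxia mice lay far above both P21 mice, and 32.2% of all genes tested were lower in both P21 mice than in both P7 mice. At least 5 reads were found in 34 of 75 and 19 of 64 cells at P7, and in 2 of 62 and 1 of 57 cells at P21. From P7 to P21 it fell by 5.55 on the log2 scale (SE 0.84, adjusted p = 0.0180 by edgeR, lower in 2 of 2 mice), and 1 of 3 genes tested passed, against 1.13% of all genes and 0.393% of all genes for falls. Leaving out any 1 mouse left Cd248 past the threshold, with adjusted p from 0.00857 to 0.0318, and the fit on the 4 mice of the contrast alone did not call it (adjusted p = 0.137). In the male mice, nearly all from 1 run, the level went from 102 to 4.99 CPM.

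The authors' names also differed between these ages, since all 139 cells at P7 were early airway smooth muscle and 113 of 119 at P21 carried the later name. Markers moved with the fall: 7 myofibroblast markers summed to 15127 and 12862 CPM at P7 and to 4920 and 6639 at P21, led at P7 by Tgfbi, an extracellular matrix protein, and 8 smooth muscle markers to 17572 and 21509 CPM at P7 and 9331 and 10090.4 at P21. The median genes per thinned airway smooth muscle cell also went from 3175 and 2988 at P7 to 1944 and 1721 at P21. The part of these differences in the Cd248 fall was not tested. Between P1 and P7, and between air and hyperoxia, 0 of 3 genes tested passed in this class, as did 0% of all genes by edgeR in each.

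**Figure D5:**
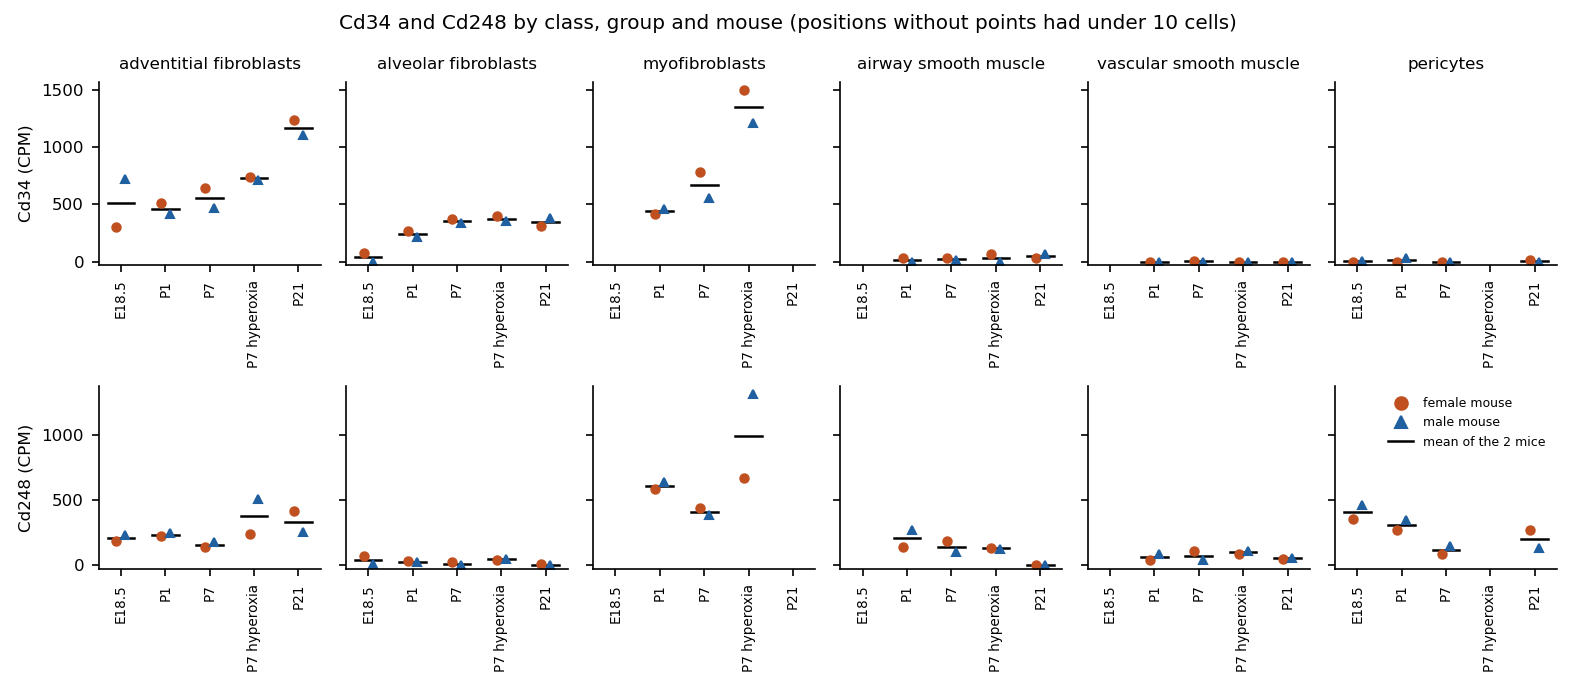
Cd34 (top row) and Cd248 (bottom row) in CPM on shared linear axes, in 6 classes (columns) and 5 groups (x axis), with 1 point per mouse and a bar at the mean. Cd34 is near 0 in vascular smooth muscle and pericytes and highest in hyperoxic myofibroblasts, and Cd248 in airway smooth muscle drops from 185 and 102 CPM at P7 to 0.924 and 4.99 at P21.

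Hyperoxia went with higher Cd34 and Cd248 in myofibroblasts of both sexes, short of the threshold. Cd34 was at 1499 and 1211 CPM against 786 and 559.7 in air (log2 change 0.98, SE 0.33, unadjusted p = 0.0236, adjusted p = 0.731 by edgeR), and Cd248 at 665 and 1309 against 436 and 388 (log2 1.15, SE 0.37, unadjusted p = 0.0190, adjusted p = 0.699). For both genes the hyperoxia mice lay above the air mice, which held for 24.1% of all genes tested. None of 3 genes tested passed, as did 0% of all genes, and 6.33% of all genes had an unadjusted p under 0.05. Thinned shares of myofibroblasts with Cd34 were 93.1% and 100% against 65.1% and 60.1% in air, and with Cd248 93.1% and 100% against 71.1% and 65.7%. The median genes per thinned cell moved with these shares, at 4476 and 5317 in hyperoxia against 2232 and 2125 in air, and its part in them was not tested.

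In alveolar fibroblasts hyperoxia left Cd34 at 396 and 355 CPM against 372 and 339 in air, overlapping values. Cd248 stood at 44.9 and 49.7 CPM against 23.0 and 4.70. Of 6 genes tested there 0 passed, as did 0% of all genes. The difference of the hyperoxia effect between adventitial and alveolar fibroblasts was tested with the mouse as a block, and 0 of 7 genes passed by edgeR, as did 0% of all 15587 genes. The adventitial change minus the alveolar change was 0.31 (SE 0.22) for Cd34, and 7.23 (SE 2.80, adjusted p = 0.730) for Ly6c1, which was under 0.1 CPM in alveolar fibroblasts of all 4 mice and which DESeq2 called (adjusted p = 0.0353). The 55 cells that the authors named male hyperoxic fibroblasts, all from 1 mouse, had Cd34 at 248 CPM and Cd248 at 44.1 CPM, with Ly6a and Ly6c1 at 0.

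In the remaining comparisons 0 genes passed by edgeR, and the only ones with unadjusted p under 0.05 were 2 genes in pericytes from P7 to P21, against 4.66% of all genes there. In pericytes 3 of the genes were tested between ages, and 0 of them passed in any of the 3 comparisons by edgeR, against 0.042%, 0% and 0.0504% of all genes from E18.5 to P1, P1 to P7 and P7 to P21. DESeq2 called Cd34 from P1 to P7, and Cd34 and Ly6a from P7 to P21, where 1 cell held nearly all the reads. In vascular smooth muscle 2 genes were tested and 0 passed in any comparison, against 0%, 0.0886% and 0% of all genes from P1 to P7, P7 to P21 and under hyperoxia. In myofibroblasts 0 of 3 passed from P1 to P7, and in alveolar fibroblasts 0 of 6 passed from P1 to P7 and from P7 to P21, against 0%, 0% and 0.0702% of all genes. With 1 mouse of each sex per group these p-values rest on 2 mice a group, and simulated 4-fold changes in adventitial fibroblasts were recovered in 5 to 14% of genes.

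Genes with a pattern most like each member were sought over 64 libraries of a mouse and subtype, by Pearson correlation of log2(CPM + 1). These libraries share mice and runs, and the values are a description. Nearest to Pi16 were Dner (r = 0.91), a Notch-type membrane protein, Adam23 (0.90), Itgbl1 (0.87), Il33 (0.87), an alarmin cytokine, and Osr2 (0.83). Ly6a and Ly6c1 were nearest to each other (0.84, subject to the uncertainty of shared Ly6 reads), followed for both by Il33 (0.83 and 0.78). Dpp4 and Thy1 had Ly6c1 (0.74 and 0.71) and Pi16 (0.73 and 0.70) among their 5 nearest genes. Cd34 was nearest to Arhgap28 (0.85), Fbln1 (0.82), a matrix protein, and Pdgfra (0.78), the receptor that marks lung fibroblasts, and Cd248 to Ttyh2 (0.72) and Eng (0.69), a TGF-beta co-receptor. Neither Cd34 nor Cd248 had another of the 7 genes among its 5 nearest, and their correlations with the other members were at most 0.44 and 0.25.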

How the data were processed

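Plate-based single-cell RNA-seq with Tn5 transposase was done on cells of mouse distal lung. The deposited table holds counts, whole-number reads per gene and cell. The submitters' processing notes name STAR 2.5.2b, HTSeq 0.10 and the build GRCh38, a name of the human assembly, so no coordinates were taken from the files. Every sample column was used, 0 being left out. Groups, sex, plate, run, sort and subtype came from the labels. Cells were FACS sorted, and the sample titles mark 5409 of them as mesenchymal, 69 as CD31 and 2 as CD45. Cells held 39358 to 5177020 reads (median 774305).

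Counts were summed per mouse and class of at least 10 cells and tested with edgeR 4.0.16 in R 4.3.3 (filterByExpr, TMM, quasi-likelihood F test, Benjamini-Hochberg over all genes tested, threshold 0.05), with group and sex as terms. All groups of a class entered the fit and share 1 estimate of the spread. CPM levels use total reads, and fold changes use TMM. Each group is 1 female and 1 male mouse, so p-values measure the spread between these mice, and an exact test of 2 against 2 cannot go below 0.333. Sex is the replicate block: it marks no shared litter or day in the labels. Shares of cells were taken after thinning each cell to 100000 reads, which left out 168 cells, or 50000. Limits for 0 use 3 counts. Reads carry no molecular identifiers, so limits cover counting error only. The procedure was tested on simulated data with 200 genes changed 4-fold. Alternatives were DESeq2 1.42.0, RLE factors, no filter, only the mice compared, no replicate block, only cells titled mesenchymal, the first plate alone of the male hyperoxia mouse (for hyperoxia comparisons) and each mouse left out. Levels without cells holding at least 5 Msln reads were added after the data had been seen.

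The 7 genes, the gene lists (adventitial companions, relatives, binding partners and anchor enzymes, interferon-induced genes, markers of cell types) and the tests were chosen with earlier results of these data known. All 7 genes were described in every comparison. From the lists, up to 4 genes per comparison were eligible for naming, those past the threshold with the lowest p, at least 10 CPM in 1 group and the same direction in both sexes. Likeness took the 5 genes of highest correlation among those with a mean of at least 5 CPM. Promoters are RefSeq's (GRCm38.p6).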

Additional observations from a re-analysis of the deposited data

Results flagged for a closer look

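Cd248 went in opposite directions in 2 classes between P7 and P21. It was higher in both P21 mice than in both P7 mice in adventitial fibroblasts (log2 change 1.28) and lower in both in airway smooth muscle (log2 change -5.55), a gap of 6.84 on the log2 scale. The difference between the classes was not tested.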

How the results depend on the processing

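Counts of the 7 genes called kept within 1.5 times their main value in 277 alternatives and moved in 16. In adventitial fibroblasts from E18.5 to P1, where 1 gene was called, DESeq2 called 2, the fit on only the mice compared 0, and fits without 1 mouse 1 to 2. From P1 to P7 DESeq2 called 1 against 0, and from P7 to P21 DESeq2 called 2, only the mice compared 1 and fits without 1 mouse 0 to 1, against 0. In alveolar fibroblasts from E18.5 to P1 fits without 1 mouse called 0 to 1 against 0. In pericytes DESeq2 called 1 from P1 to P7 and 2 from P7 to P21 against 0. In airway smooth muscle from P7 to P21 only the mice compared gave 0 against 1, and for the difference of the hyperoxia effect between fibroblast classes DESeq2 called 1 against 0. The causes were not tested. Over all genes DESeq2 called 775, 332, 853 and 385 in the 4 adventitial comparisons where edgeR called 26, 0, 19 and 0. Under hyperoxia the adventitial log2 change of Pi16 reversed without the male hyperoxia mouse (-0.38) and without the female P7 mouse (-0.43), and that of Cd34 without the male P7 mouse (-0.10), with ranges over the mice left out of -0.43 to 1.10 and -0.10 to 0.56. With no replicate block, that is, without pairing the mice by sex, Ly6a had a log2 change of 16.07 (adjusted p = 0.00787 by edgeR) from E18.5 to P1 and Cd248 -5.23 (adjusted p = 0.0131) in airway smooth muscle. Each remained called, and edgeR called 42 genes in place of 19 in adventitial fibroblasts from P7 to P21. Using the first plate alone of the male hyperoxia mouse left 0 of the genes called under hyperoxia in every class. Dpp4 and Thy1 had a read in 121 and 111 cells.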
